A study of Mus musculus with 2 samples.

Results

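The genes described here are 36 markers of macrophages and other immune cells, taken from a written list by gene symbol, all of which were found among the 43280 gene symbols of the count files. They were examined in 1 library of mature hepatocytes (MHs) and 1 library of small hepatocytes (SHs), the small hepatocyte progenitors that the study used to build liver organoids. According to the labels, both came from the livers of the same C57BL6 mice, aged 20 weeks, whereas the methods of the study give a younger age and 3 mice. The labels name no transgene and no treatment for either group. MHs were collected by low-speed centrifugation and a Percoll gradient that removes dead cells, and they were not sorted. SHs were collected from the supernatant of that spin, passed through Percoll as well, and sorted by FACS as cells without CD31, CD45 and EpCAM on their surface and with ICAM-1. CD45 is the surface protein of leukocytes, Kupffer cells included, so the sort itself selects against the cells that these markers name. The cell type and the sort changed together between the libraries, and their parts in any difference cannot be told apart.

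Kupffer cells are the resident macrophages of the liver. They line the sinusoids, take up particles, old red blood cells and microbes from portal blood through scavenger and complement receptors, and depend on signaling through the receptor CSF1R and on the transcription factor PU.1, encoded by Spi1. Macrophages also secrete the complement protein C1q, carry Fc receptors that bind antibodies, and present antigen on MHC class II molecules. Hepatocytes are not leukocytes, and most of these genes serve to recognize other cells in a liver cell preparation.

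Promoters of some of these genes are shown first, because PU.1 and its relatives of the ETS family bind sequences with a GGAA core. Each run holds the 250 bases before the gene start in RefSeq (GRCm38.p6), read 5′ to 3′ on the strand of the gene, with AGGAAGT on either strand in capitals (ACTTCCT where it lies on the opposite strand). C1qb, C1qc and Lyz2 are shown as macrophage genes with a match, and Clec4f and Vsig4 as Kupffer cell genes without it. Fcgr3 is shown as the marker with the most reads over both libraries in the counts described below.
C1qb (chr4:136886201-136886450, minus strand): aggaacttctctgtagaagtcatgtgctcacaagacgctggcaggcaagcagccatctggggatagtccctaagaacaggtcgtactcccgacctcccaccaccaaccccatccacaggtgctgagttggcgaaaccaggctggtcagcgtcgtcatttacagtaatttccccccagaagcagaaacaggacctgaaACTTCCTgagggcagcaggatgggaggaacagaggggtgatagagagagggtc
C1qc (chr4:136892915-136893164, minus strand): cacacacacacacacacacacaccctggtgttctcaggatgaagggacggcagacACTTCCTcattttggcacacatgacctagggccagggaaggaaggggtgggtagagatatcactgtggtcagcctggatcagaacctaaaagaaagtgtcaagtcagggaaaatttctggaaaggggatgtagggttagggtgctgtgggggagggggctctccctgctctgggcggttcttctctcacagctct
Lyz2 (chr10:117282273-117282522, minus strand): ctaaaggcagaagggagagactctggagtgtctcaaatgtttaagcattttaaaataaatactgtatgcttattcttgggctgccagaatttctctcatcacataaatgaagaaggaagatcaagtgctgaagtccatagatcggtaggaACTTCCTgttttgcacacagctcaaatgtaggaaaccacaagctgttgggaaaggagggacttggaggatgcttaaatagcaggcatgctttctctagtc
Clec4f (chr6:83656117-83656366, minus strand): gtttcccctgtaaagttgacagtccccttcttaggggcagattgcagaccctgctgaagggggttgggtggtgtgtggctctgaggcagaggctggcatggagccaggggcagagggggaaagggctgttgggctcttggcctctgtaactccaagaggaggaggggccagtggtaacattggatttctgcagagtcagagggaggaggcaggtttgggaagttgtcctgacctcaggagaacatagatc
Vsig4 (chrX:96293439-96293688, minus strand): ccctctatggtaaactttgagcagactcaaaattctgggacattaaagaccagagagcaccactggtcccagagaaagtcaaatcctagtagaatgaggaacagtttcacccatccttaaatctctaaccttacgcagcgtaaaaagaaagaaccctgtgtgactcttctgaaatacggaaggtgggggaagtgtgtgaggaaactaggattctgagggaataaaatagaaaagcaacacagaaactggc
Fcgr3 (chr1:171059404-171059653, minus strand): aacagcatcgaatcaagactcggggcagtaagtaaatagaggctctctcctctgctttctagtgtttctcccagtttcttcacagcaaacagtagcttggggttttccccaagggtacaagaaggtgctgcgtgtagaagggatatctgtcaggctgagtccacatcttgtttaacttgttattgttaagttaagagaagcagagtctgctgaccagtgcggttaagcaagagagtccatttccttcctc
The promoter table held 28 of the 36 genes. The 8-letter string GAGGAAGT, the classic PU.1 site, lay on either strand in the promoters of C1qc, Fcgr4 and S100a8, which is 10.7% of the 28 genes, and in 2.79% of all 27025 genes in the table. The shorter AGGAAGT, which lies within the longer string, was found for 9 of the 28 genes (32.1%) and for 8.80% of all genes. These genes were C1qb, C1qc, Cd3e, Fcgr1, Fcgr4, Folr2, Lyz2, Ptprc and S100a8. The 6-letter GGAAGT was found for 14 of the 28 genes (50%), Clec4f and Vsig4 among them, and for 22.2% of all genes. Of the 9 strings searched, AGGAAGT was chosen for display after the matches had been seen. Cd3e and S100a8 had 0 reads in both libraries, so a match was also present in promoters of genes that were not detected.

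Expression was counted as reads per gene and scaled to reads per 1000000 counted reads of the same library (RPM). Counted reads numbered 16979136 for MHs and 42356444 for SHs, so equal RPM corresponds to 2.49 times as many reads in SHs. Differences between the libraries are given as log2 ratios of SHs over MHs, with 0.5 reads added to each count of a single gene and none added to sums. Their 95% Clopper-Pearson intervals cover counting error only, because the reads carry no molecular identifiers and neither cell type had a replicate. A test of MHs against SHs could not be made, so each comparison is between these 2 libraries. The smallest level that 3 reads can show was 0.177 RPM in MHs and 0.0708 in SHs. For a gene with 1 to 3 reads in either library the interval is given without a ratio, and for a gene with 0 reads the bound is computed against 3 reads. The labelled cell type was checked with 12 hepatocyte markers, such as Alb and Hnf4a. Their share of all counted reads was 9.18% in MHs and 9.59% in SHs, and their log2 ratios lay between -0.19 and 0.13.

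The macrophage and immune cell markers were present at a low level in MHs and were lower still in SHs. Together they took 667 reads in MHs, or 39.3 RPM (95% exact Poisson interval 36.4 to 42.4), and 361 reads in SHs, or 8.52 RPM (7.67 to 9.45). The log2 ratio of the sum was -2.20 (-2.39 to -2.02). Fcgr3 alone held 233 of the 361 reads in SHs. Without Fcgr3, the other 35 genes had 589 reads in MHs and 128 in SHs, giving a log2 ratio of -3.52 (-3.81 to -3.24), or 11.5-fold lower in SHs. At the level of MHs, these 35 genes would have had 1469 reads in the deeper library of SHs. In bulk libraries such as these, fewer cells of a type and less RNA per cell cannot be told apart.
The 95% interval lay wholly under 0 for 21 of the 36 genes and wholly above 0 for none of them. It included 0 for 13 genes, and Cd3e and S100a8 had no reads in either library. Of all 24999 genes with at least 1 read, 10.8% had an interval wholly under 0 and 10.4% had one wholly above 0. At least 10 reads over both libraries were found for 22 markers, which had between 10 and 311 reads each. A fall of at least 2-fold in SHs, with an interval under 0, was seen for 17 of these, and a rise of that size for 0. The same rule was met by 4.46% of the 15521 genes with at least 10 reads for lower and by 2.00% for higher. Among the 6958 genes with 10 to 311 reads, these shares were 9.08% and 4.11%. The median log2 ratio was -3.67 over the 22 markers, or -3.33 with Folr2, which had 0 reads in SHs, set at its bound, and 0.02 over all genes with at least 10 reads. A marker under 10 reads in SHs can pass this minimum only through its reads in MHs, so the 17 genes and the median are a description of the markers that passed and do not stand for all 36. Both medians of the markers also use fitted ratios of genes with 1 to 3 reads in a library.

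**Figure D1:**
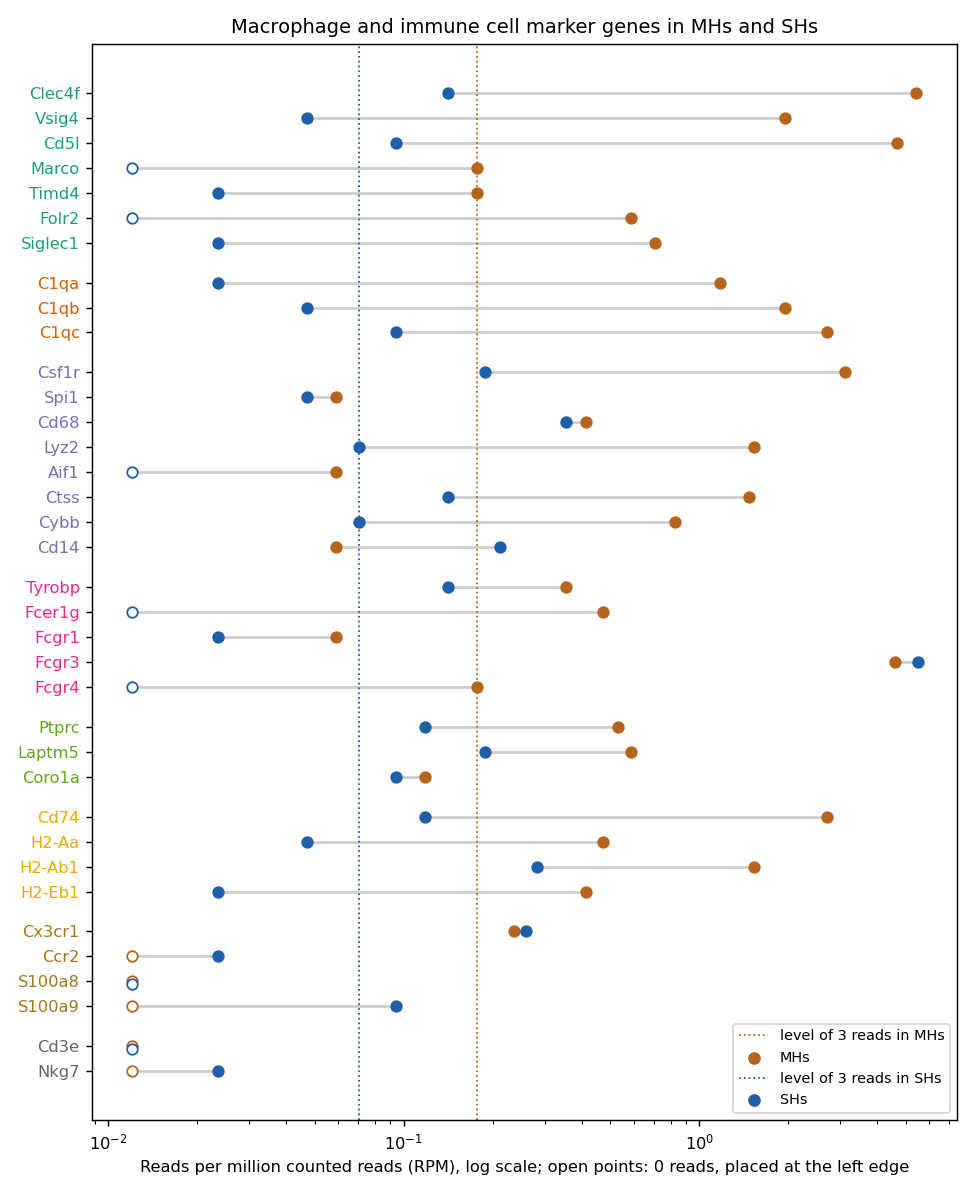
Level of each of the 36 marker genes in MHs (brown) and SHs (blue), in RPM on a log axis, with gene names colored by group and dotted lines at the level of 3 reads in each library. Most brown points lie to the right of their blue partners, with wide gaps for most Kupffer cell and C1q genes, whereas the points of Fcgr3 lie close together at 4.59 and 5.50 RPM.

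**Figure D2:**
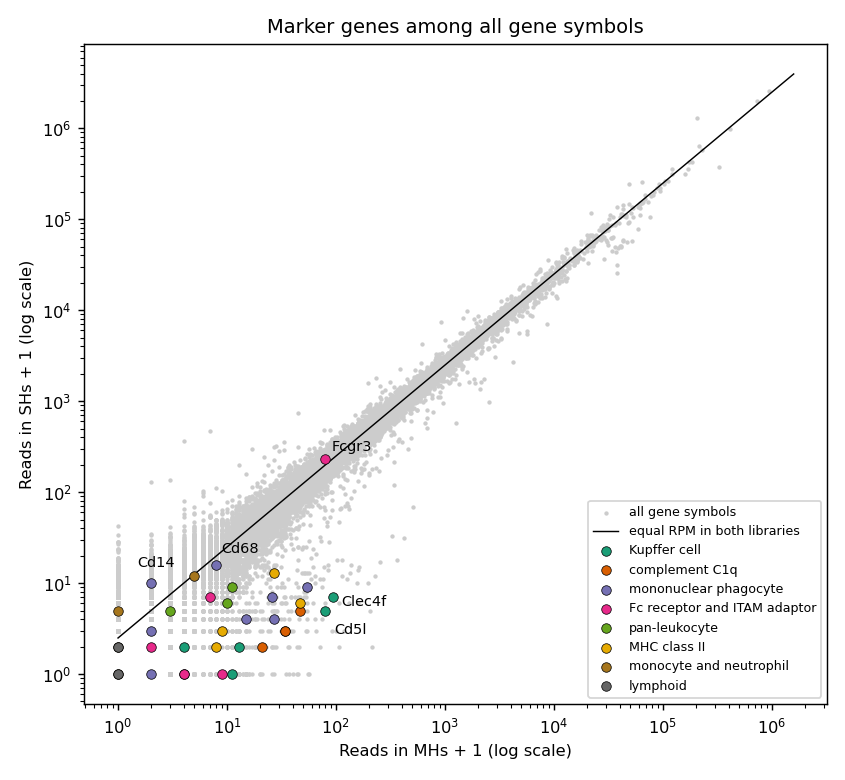
Reads in SHs against reads in MHs for all 43280 gene symbols (gray) and for the 36 markers (colored by group), with 1 read added for display on log axes. The line marks equal RPM, and most markers lie under it, whereas Fcgr3, the marker with the most reads over both libraries, lies near it.

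The 7 Kupffer cell genes and the 3 C1q genes showed the largest differences of the 8 marker groups, with intervals that overlapped each other, and that of C1q also overlapped the interval of the MHC class II genes. The Kupffer cell genes had 232 reads in MHs, or 13.7 RPM, and 14 reads in SHs, or 0.331 RPM, whereas the level of MHs would have given 578.8 reads in SHs. The log2 ratio of the sum was -5.37 (-6.26 to -4.59).
Clec4f encodes a C-type lectin that in mice is a defining marker of Kupffer cells (chromosome 6, 83644542 to 83656187 of mm10). It had 92 reads in MHs and 6 in SHs, which were 5.42 and 0.142 RPM, giving a log2 ratio of -5.15 (-6.74 to -4.08).
Cd5l, which encodes a secreted protein that protects macrophages from apoptosis, had 79 reads in MHs and 4 in SHs (chromosome 3, 87357881 to 87371073). Its log2 ratio was -5.46 (-7.53 to -4.21), and its interval overlapped that of Clec4f.
Vsig4, the complement receptor CRIg, through which Kupffer cells catch bacteria, had 33 reads in MHs and 2 in SHs, between 10.5-fold and 354-fold lower in SHs. Siglec1, a sialic acid receptor of macrophages, had 12 reads in MHs and 1 in SHs, with a log2 interval of -10.3 to -2.15. Folr2, which encodes folate receptor β of tissue macrophages, had 10 reads in MHs and 0 in SHs, which against 3 reads is at least 8.32-fold lower for the count in MHs as it stands, and the 95% interval, which also covers the error of that count, ends at 5.59-fold lower. Marco, a scavenger receptor, and Timd4, a receptor for phosphatidylserine on dying cells, had only 3 reads each in MHs, with 0 and 1 in SHs. Every gene of this group had fewer reads in the deeper library, and the interval included 0 for Timd4 only.

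C1q is built from 3 chains, and the genes of all of them lie side by side on chromosome 4. C1qa had 20 reads in MHs and 1 in SHs, C1qb had 33 and 2, and C1qc had 46 and 4. The log2 ratio of C1qc was -4.69 (-6.78 to -3.39), and the intervals of C1qa and C1qb lay wholly under 0, with upper ends of -3.00 and -3.40. As a sum, C1q had 5.83 RPM in MHs and 0.165 RPM in SHs, and its log2 ratio was -5.14 (-6.49 to -4.04). The 3 chains had the same order of reads in both libraries, but in SHs it rests on 1, 2 and 4 reads, with overlapping RPM intervals.
The 4 MHC class II genes were also lower in SHs, by a smaller factor than the Kupffer cell genes. Cd74, the invariant chain that escorts class II molecules, had 46 reads in MHs and 5 in SHs, giving a log2 ratio of -4.40 (-6.21 to -3.19). H2-Ab1, which encodes a class II β chain, had 26 and 12 reads, giving a log2 ratio of -2.40 (-3.56 to -1.40). H2-Aa and H2-Eb1 had 8 and 7 reads in MHs and 2 and 1 in SHs, with log2 intervals of -6.59 to -0.99 and -9.62 to -1.17. The sum of the group was 5.12 RPM in MHs and 0.472 in SHs. Its log2 ratio was -3.44 (-4.22 to -2.73), and this interval did not overlap that of the Kupffer cell genes. H2-Ab1 kept the most reads of the group in SHs, whereas Cd74 held the most in MHs.

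The 8 genes of mononuclear phagocytes differed among themselves. Their sum was 128 reads in MHs and 46 in SHs, giving a log2 ratio of -2.80 (-3.31 to -2.30).
Csf1r, the receptor on which macrophage survival depends, had 53 reads in MHs and 8 in SHs, which were 3.12 and 0.189 RPM, giving a log2 ratio of -3.97 (-5.33 to -2.96). Ctss, a lysosomal protease that trims the invariant chain, had 25 and 6 reads, giving a log2 ratio of -3.29 (-4.95 to -2.06). Csf1r overlaps Hmgxb3 on the opposite strand, with 219 reads in MHs and 677 in SHs. Ctss overlaps the pseudogene Hmgb1-ps5 on the same strand, with 11 and 50. The part of these neighbours in the reads of Csf1r and Ctss was not tested. Lyz2, which encodes lysozyme, had 26 and 3 reads, between 6.63-fold and 112-fold lower in SHs. Cybb, the catalytic subunit of the phagocyte NADPH oxidase, had 14 and 3 reads, between 3.25-fold and 63.2-fold lower.
The other 4 genes of the group had intervals that included 0. Cd68, a lysosomal glycoprotein widely used to stain macrophages, had 7 reads in MHs and 15 in SHs, which were 0.412 and 0.354 RPM. Its log2 ratio was -0.27 (-1.60 to 1.32). Eif4a1 and Mpdu1 lie within 2 kb of Cd68 on the same strand, with 2130 and 720 reads in MHs and 5299 and 1606 in SHs, and their part in the reads of Cd68 was not tested. Cd14, a co-receptor for lipopolysaccharide, had 1 read in MHs and 9 in SHs, with an interval from 2.00-fold lower to 158-fold higher in SHs. Spi1 had 1 and 2 reads, and Aif1, an actin-binding protein of macrophages, had 1 and 0, so neither was above the floor of 3 reads in either library.

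Among the Fc receptors and their signaling adaptors, Fcgr3 stood apart. Fcgr3 encodes FcγRIII, a low-affinity receptor for immunoglobulin G (chromosome 1, 171051174 to 171064935). It had 78 reads in MHs and 233 in SHs, which were 4.59 RPM (3.63 to 5.73) and 5.50 RPM (4.82 to 6.25). The log2 ratio was 0.25 (-0.12 to 0.65), an interval that included 0 and lay above the intervals of Clec4f, Cd5l, C1qc, Csf1r and Cd74. On a scale that allows for gene length, Fcgr3 had the highest level of the 36 markers in MHs, 2.65 reads per kilobase of exon per 1000000 counted reads (2.09 to 3.30), beside 2.29 for Cd5l and 2.19 for Clec4f, and these levels in MHs overlapped in their intervals. In SHs, it reached 3.17 (2.78 to 3.60) on the same scale, and the next marker was Cd68 with 0.282.
Fcgr2b, the inhibitory Fc receptor that lies near Fcgr3 and resembles it closely in its extracellular part, is not among the markers. It was looked at after the value of Fcgr3 had been seen. It had 133 reads in MHs and 12 in SHs, so its reads were fewer in the deeper library, unlike those of Fcgr3. The methods allowed reads with several hits in the genome, and how the counting divided reads between these paralogs is not given in the sources used here.
Fcer1g encodes the common γ chain that FcγRIII needs to reach the cell surface. It had 8 reads in MHs and 0 in SHs, which is at least 6.65-fold lower against 3 reads, with an interval that ends at 4.26-fold lower, in contrast to its partner Fcgr3. Tyrobp, the adaptor DAP12, had 6 reads in each library, with an interval of -3.22 to 0.58. Fcgr1 had 1 read in each, and Fcgr4 had 3 reads in MHs and 0 in SHs. The 5 genes as a sum had a log2 ratio of 0.00 (-0.34 to 0.36), and the 4 genes without Fcgr3 one of -2.68 (-4.18 to -1.35). For these 4 genes, that was 18 reads in MHs and 7 in SHs.

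**Figure D3:**
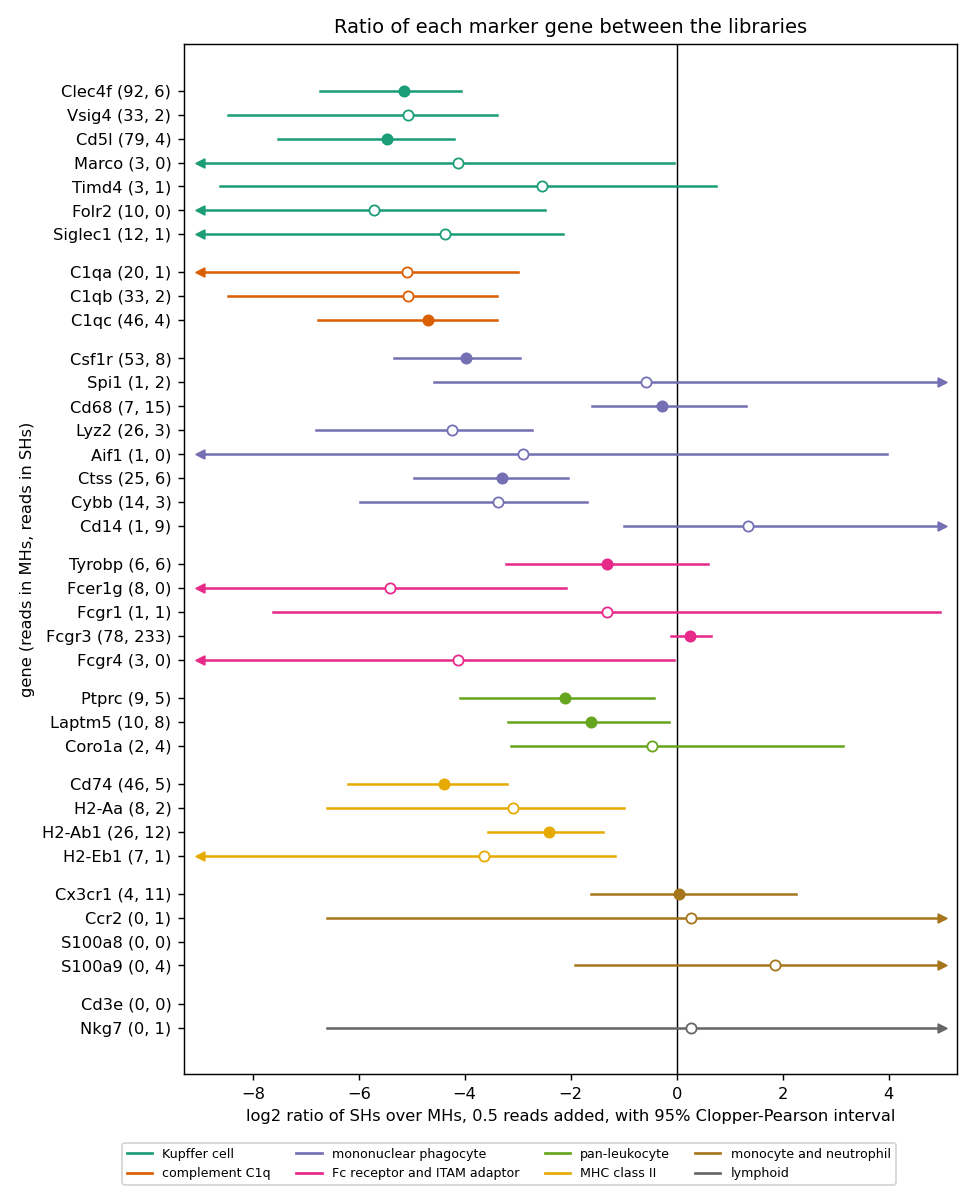
Log2 ratio of SHs over MHs for each marker with its 95% Clopper-Pearson interval, with the reads in MHs and SHs in parentheses. Open points mark genes with 3 reads or fewer in a library, arrowheads mark intervals that run past the axis, and genes without reads have no point. The intervals of 21 genes lie wholly to the left of 0, and the short interval of Fcgr3 includes 0.

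Markers shared by all leukocytes were close to the floor in both libraries. Ptprc, which encodes CD45, the protein used in the sort, had 9 reads in MHs and 5 in SHs, giving a log2 ratio of -2.11 (-4.09 to -0.43). Laptm5, a lysosomal membrane protein of blood cells, had 10 and 8 reads, giving a log2 ratio of -1.62 (-3.18 to -0.15). Coro1a, a leukocyte actin regulator that overlaps Bola2 on the opposite strand, had 2 and 4 reads. The group had a log2 ratio of -1.62 (-2.64 to -0.63), and its interval did not overlap those of the Kupffer cell, C1q and MHC class II genes.
Monocytes, neutrophils and lymphocytes left almost no reads. Cx3cr1, the fractalkine receptor, had 4 reads in MHs and 11 in SHs, with an interval of -1.61 to 2.25. Its gene model in GENCODE spans other genes, among them Csrnp1 with 624 reads in MHs and 1997 in SHs, and the part of those reads in its count was not tested. Ccr2, a receptor of inflammatory monocytes, had 0 and 1 reads. S100a8 had 0 reads in both libraries, and S100a9, its partner in neutrophil calprotectin, had 0 in MHs and 4 in SHs. The T cell receptor subunit gene Cd3e had no reads, and Nkg7, of cytotoxic lymphocytes, had 0 and 1. By the floor of 3 reads, a count of 0 allows up to 0.177 RPM in MHs and 0.0708 in SHs, so low levels of these genes were not detectable at this depth.

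**Figure D4:**
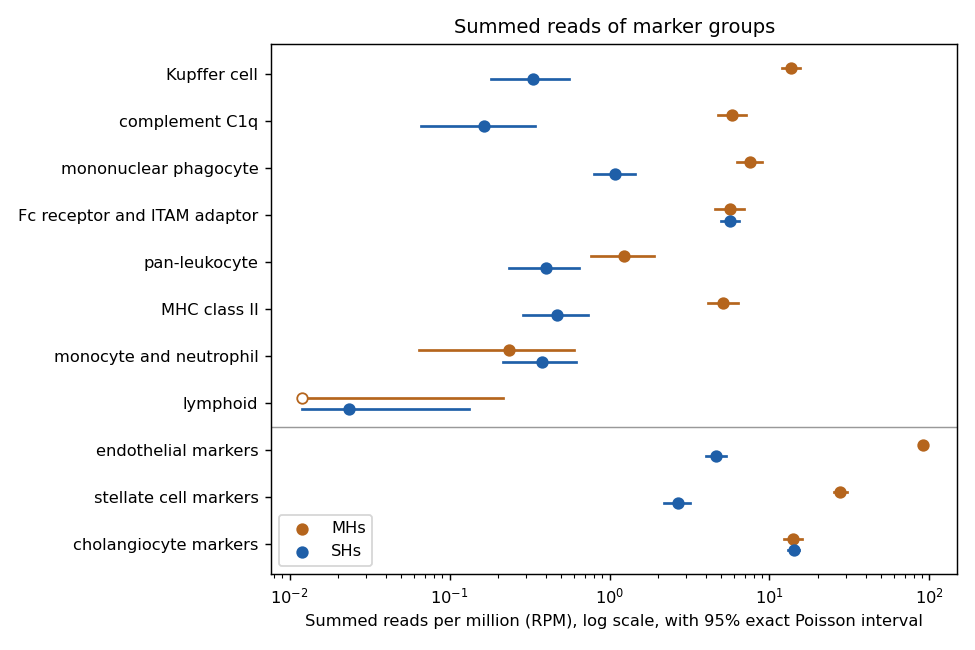
Summed RPM of each marker group in MHs (brown) and SHs (blue), on a log axis with 95% exact Poisson intervals, above the sums of endothelial, stellate cell and cholangiocyte markers. The open point marks 0 reads and is placed at the left. The intervals of the 2 libraries are apart for the Kupffer cell, C1q, mononuclear phagocyte, pan-leukocyte and MHC class II groups, and overlap for the Fc receptor, monocyte and neutrophil, and lymphoid groups.

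The make-up of the markers' reads also differed between the libraries. Kupffer cell genes held 34.8% of the markers' reads in MHs (95% Clopper-Pearson interval 31.2 to 38.5) and 3.88% in SHs (2.14 to 6.42). The Fc receptor group went the other way, from 14.4% (11.8 to 17.3) to 66.5% (61.4 to 71.3), which was almost wholly Fcgr3. Without Fcgr3, the Kupffer cell genes held 39.4% in MHs (35.4 to 43.5) and 10.9% in SHs (6.11 to 17.7). The share of C1q was 16.8% (13.9 to 20.1) in MHs and 5.47% (2.23 to 10.9) in SHs. Mononuclear phagocyte genes held 21.7% (18.5 to 25.3) and 35.9% (27.7 to 44.9), and pan-leukocyte genes 3.57% (2.22 to 5.40) and 13.3% (7.93 to 20.4). Monocyte and neutrophil genes held 0.679% (0.185 to 1.73) in MHs, from 4 reads, and 12.5% (7.32 to 19.5) in SHs, from 16 reads. The share of MHC class II genes was 14.8% in MHs and 15.6% in SHs, with intervals that overlapped. Without Fcgr3, the share of the Kupffer cell genes was thus smaller in SHs, and that of the pan-leukocyte and mononuclear phagocyte genes larger. The intervals of each share did not overlap, although the RPM of all of these groups was lower in SHs. Cd68 and Cd14 held 15 and 9 of the 46 mononuclear phagocyte reads in SHs, against 7 and 1 of 128 such reads in MHs. The share of that group without them was not computed. The share of the monocyte and neutrophil genes was also larger in SHs, with intervals that did not overlap. Cx3cr1 held 11 of the 16 reads there, and the RPM intervals of this group overlapped. With Fcgr3 counted, the share of the mononuclear phagocyte genes was 19.2% (16.3 to 22.4) in MHs and 12.7% (9.48 to 16.6) in SHs. That of the pan-leukocyte genes was then 3.15% (1.96 to 4.77) and 4.71% (2.77 to 7.43), with intervals that overlapped.

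**Figure D5:**
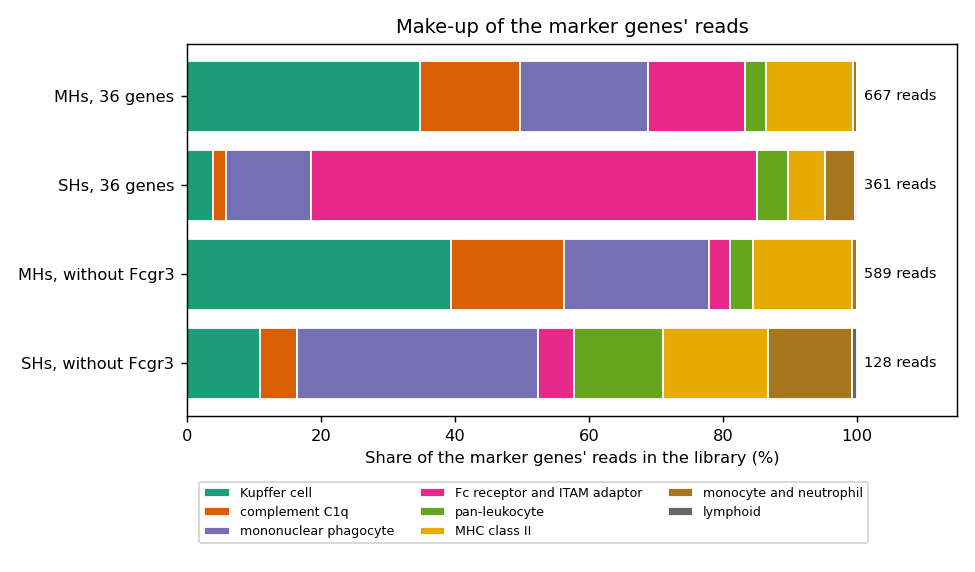
Share of the markers' reads held by each marker group within each library, in percent, with all 36 genes (upper bars) and without Fcgr3 (lower bars), beside the number of reads. Kupffer cell genes take 34.8% in MHs and 3.88% in SHs, and Fc receptor genes take most of the bar of SHs only when Fcgr3 is counted.

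Other immune genes, which were not among the 36 markers, were examined in 4 lists with 68 genes. At least 10 reads were found for 14 of them. A fall of at least 2-fold was seen for 5 of them and a rise of that size for 0. Of all genes with at least 10 reads, 4.46% met the rule for lower and 2.00% that for higher. A gene under 10 reads in SHs can pass this minimum only through its reads in MHs, so these counts are a description. Over all 68 genes, the interval lay wholly under 0 for 12 and wholly above 0 for 1. It included 0 for 36, and 19 had no reads. Among all genes with at least 1 read, these shares were 10.8% under 0 and 10.4% above 0. All 5 genes with a fall were in the list of 28 macrophage genes. They were Mrc1, Msr1, Cd163, Adgre1 (listed under its older symbol Emr1) and Itgb2, named after their values had been seen. Mrc1, the mannose receptor that liver endothelial cells also express, had 213 reads in MHs and 1 in SHs. Msr1, a scavenger receptor, had 43 and 1, and Cd163, the receptor for hemoglobin bound to haptoglobin, had 15 and 0. Adgre1, which encodes the macrophage antigen F4/80, had 14 and 1, and Itgb2, the integrin chain shared by leukocytes, had 9 and 2.
The macrophage list as a whole had a log2 ratio of only -0.28 (-0.34 to -0.21), and Lcp1 and Mpeg1 held most of its reads. Lcp1, an actin-bundling protein, had 1403 reads in MHs and 3278 in SHs, giving a log2 ratio of -0.09, that is 1.00-fold to 1.14-fold lower in SHs by its interval. Mpeg1, which encodes a pore-forming protein of phagocytes, had 497 and 827, giving a log2 ratio of -0.58 (-0.75 to -0.42). On the same scale per kilobase of exon, the level in MHs was 8.69 for Lcp1 and 6.75 for Mpeg1, against 2.19 for Clec4f. Both genes, like Fcgr3, had far more reads in SHs than any defining Kupffer cell marker.
The 6 other MHC class II genes had 10 reads in MHs and 19 in SHs, with an interval for their sum of -1.57 to 0.87. The 14 neutrophil and dendritic cell genes had 59 and 114 reads, of which Zbtb46 held 50 and 108. The 20 lymphoid genes had 19 and 50 reads, of which Cd4 held 11 and 36. Of the ligands of CSF1R, Csf1 had 79 reads in MHs and 167 in SHs, giving a log2 ratio of -0.24 (-0.63 to 0.17), and Il34 had 0 and 1. The interval of Csf1 included 0, whereas that of its receptor gene Csf1r lay wholly under 0.

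Markers of other non-parenchymal cells were compared as sums. The 10 endothelial markers had 1542 reads in MHs and 197 in SHs, giving a log2 ratio of -4.29 (-4.51 to -4.07). In order of fitted ratio they ranged from Oit3, with 106 reads in MHs and 1 in SHs, to Stab2, with 338 and 119 reads and a log2 ratio of -2.82. The 10 stellate cell markers had 470 and 113 reads, giving a log2 ratio of -3.38 (-3.68 to -3.08). Among the 9 of them with at least 10 reads, they ranged from Colec11, with 26 reads in MHs and 0 in SHs, to Col3a1, with 10 and 6 reads and a log2 ratio of -2.01. The interval of the Kupffer cell genes, -6.26 to -4.59, lay under both of these, and that of the C1q genes overlapped the endothelial interval. Stab2 alone held 119 of the 197 endothelial reads in SHs, and a sum without it was not computed. Median log2 ratios of fitted values were close, at -5.06 over the 10 endothelial markers and -5.15 over the 5 Kupffer cell genes with at least 10 reads. The order of these sums thus does not stand for single genes. The 6 cholangiocyte markers had 237 and 599 reads, giving a log2 ratio of 0.02 (-0.20 to 0.24), most of them on Sox9 and Spp1, and Epcam had 6 and 1. Red blood cell markers other than Alas2 had 3 reads in MHs and 22 in SHs, with an interval of -0.18 to 3.94. Alas2 had 2008 and 5784 reads. As sums, the endothelial and stellate cell markers thus moved with the macrophage markers. The intervals of the sums included 0 for the cholangiocyte markers and for the red blood cell markers other than Alas2. Among single cholangiocyte markers, the interval lay above 0 for Sox9 (0.16 to 0.85). It lay under 0 for Spp1 (-0.63 to -0.02) and Epcam (-9.43 to -0.86). The part of these other cell types in the results was not tested.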

How the data were processed

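Poly(A) RNA of 1 sample each of MHs and SHs was read on an Ion Proton sequencer. The authors deposited whole read counts per gene symbol for each sample, without normalization. The methods describe trimming, alignment to mm10 in CLC Genomics Workbench and RPKM values, but the program, annotation and strand setting behind the deposited counts are not given in the sources used here. Counts of genes that overlap others, or that have close paralogs, are uncertain for that reason.

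The 36 genes and all other lists were chosen with earlier results of these data known. The genes named in the text were all members, the 3 other immune genes with the most reads in MHs (1 of them is not reported here), all other immune genes at least 2-fold higher in SHs (there were 0), the CSF1R ligands, and the extremes of the other cell type lists. Genes outside this rule are said to be so. Zbtb46, Cd4, Sox9, Spp1, Epcam, Alas2 and the neighbours of Csf1r, Ctss, Cd68, Coro1a and Cx3cr1 were also named after their values were seen. Groups followed the labels. RPM, log2 ratios and intervals were computed with scipy 1.17.1, pandas 2.3.3 and numpy 2.4.6 under Python 3.11.15. With 1 library per condition, no p-value was computed. Depths, added reads, read minimums and the floor are given with the results. Coordinates and exon lengths (all annotated exons merged) came from GENCODE M21 for mm10, and promoters from RefSeq. RefSeq starts can differ from those of GENCODE. Among the promoters shown, those of Clec4f, C1qc and Lyz2 lie partly inside the GENCODE gene models. The whole run shown for Fcgr3 lies inside its model. The calculation was tested on simulated counts. Alternatives were scaling by edgeR's TMM (4.0.16) or DESeq2's size factors (1.42.0) or by a total that leaves out the 10 most abundant genes, addition of 2 reads, other folds and read minimums, and sums without some genes.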

Additional observations from a re-analysis of the deposited data

How the results depend on the processing

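No paired analysis was possible because MHs and SHs had 1 library each. Other scalings (TMM, size factors of DESeq2, or a total that leaves out the 10 most abundant genes) shifted every ratio by the same 0.01 to 0.03 (log2) and moved no sum by more than its interval. With 2 reads added, no ratio of a single gene left its main interval. The sum of the 36 markers had a log2 ratio of -2.02 without Clec4f, the marker with the most reads in MHs, and, in an alternative chosen after seeing the data, of -3.52 without Fcgr3. The Fc receptor and adaptor group had one of -2.68 without Fcgr3, also chosen after seeing the data. The number of markers at least 2-fold lower in SHs was 17 at each scaling, 21 without a read minimum, 16 at 4-fold and 9 among the 10 markers with at least 30 reads. The last count is smaller because fewer genes have that many reads. Among all genes, the rule for lower was met by 3.91% without a read minimum, 2.52% at 4-fold and 2.81% with at least 30 reads. With an interval wholly above 0, as the count requires, no marker was at least 2-fold higher in SHs under any of these settings. For higher, the shares of all genes were 1.24% without a read minimum, 0.883% at 4-fold and 1.51% with at least 30 reads. Depth limits the result most for the 14 markers with fewer than 10 reads over both libraries, of which 10 had intervals that included 0 or no reads.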
